A study of Danio rerio with 6 samples.

Results

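The citric acid cycle and the phosphoenolpyruvate carboxykinase genes were followed through the exposure of zebrafish embryos to pentachlorophenol (PCP), a chlorinated phenol known as an uncoupler of oxidative phosphorylation. The genes were taken by name: pck1, pck2, cs, idh3a, idh2, sucla2, suclg1, fh and mdh2. Of these 9 names, 8 stood as a gene name in the table of 21228 entries, and mdh2 was not analysed here. The material was whole Tuebingen embryos, which stayed in PCP at 0, 5 or 200 μg/l from roughly 1 hpf (hours post fertilization) until they were taken at 10 or 24 hpf. The groups at 24 hpf were 24L (5 μg/l), 24H (200 μg/l) and the control 24C, and those at 10 hpf were 10L (5 μg/l), 10H (200 μg/l) and the control 10C. All 6 groups, controls included, were kept in the vehicle, DMSO. A group was pooled into a single library, so no value has a replicate and a test sets 1 library against another, not 1 condition against another.

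The citric acid cycle runs in the mitochondrion. It oxidizes the acetyl group of acetyl-CoA to carbon dioxide and hands the electrons to the respiratory chain, while its intermediates feed the synthesis of glucose, amino acids and heme. Phosphoenolpyruvate carboxykinase (PEPCK) draws carbon out of the cycle by turning oxaloacetate into phosphoenolpyruvate, with pck1 coding for the cytosolic and pck2 for the mitochondrial enzyme. In mammals, liver, kidney and intestine are the tissues best known for PEPCK, and PCK1 is held to be controlled mainly through its transcription.

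Values are normalized counts, that is, reads multiplied by the scaling factor of the library, and they are not divided by gene length, so levels are compared between libraries and not between genes. FC is the ratio of 2 normalized counts. The range in parentheses after an FC is its 95% Clopper-Pearson interval from the reads, and it covers counting error only. Genes rose, fell or were called where their FC passed 2 or 0.5 and the two-sided exact binomial test of their reads gave an unadjusted p under 0.05.

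The transcript of pck1 was scarce at 10 hpf and was higher in all 3 libraries of the later age. At 24 hpf its normalized counts were 441 in 24C, 1381 in 24L and 1568 in 24H, from 412, 1339 and 1820 reads. In the younger embryos they were 12.6 in 10C, 14.2 in 10L and 70.4 in 10H, from 12, 16 and 67 reads. The 2 treated libraries at 24 hpf thus stood well above their control, while at 10 hpf only the library of the high dose did so.

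Relative to the controls, pck1 rose in 24H with an FC of 3.56 (3.20–3.97), in 24L with an FC of 3.13 (2.80–3.51) and in 10H with an FC of 5.59 (3.0–11.4). In 10L the FC was 1.12 (0.499–2.60), an interval that reaches from a fall to over 2-fold higher, so at this depth a change of pck1 at the low dose and early age was not detectable. Between the doses, pck1 was 1.14-fold (1.06–1.22) as high in 24H as in 24L, which was not called, and 4.98-fold (2.85–9.20) as high in 10H as in 10L, which was called. Because whole embryos were sequenced, fewer cells of a type and less RNA per cell cannot be told apart in any of these values.

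The mitochondrial gene, pck2, took the opposite course with age. Its normalized counts at 24 hpf were 5477 in 24C, 13239 in 24L and 23776 in 24H. The younger libraries had 62425 in 10C, 68784 in 10L and 64068 in 10H. The 3 libraries at 10 hpf were thus close to each other and above all 3 libraries at 24 hpf, and those at 24 hpf followed the dose.

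In 24H pck2 rose with an FC of 4.34 (4.21–4.47), and in 24L with an FC of 2.42 (2.34–2.50). The step between the doses, 24H over 24L, was 1.80 (1.76–1.83) and was not called. At 10 hpf the FC of pck2 was 1.03 (1.01–1.04) in 10H and 1.10 (1.09–1.11) in 10L, neither of them called. With 5120 or more reads in each library the counting error of pck2 was small, which says nothing of the variation between pools of embryos.

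From one control to the other the 2 PEPCK genes moved in opposite directions. For pck1 the ratio of 24C over 10C was 35.0 (19.8–68.3), a rise. For pck2 it was 0.0877 (0.0852–0.0903), a fall. At 200 μg/l pck2 had its higher level at 10 hpf and was called up against the control at 24 hpf only, and pck1 was called up at both ages.

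**Figure D1:**
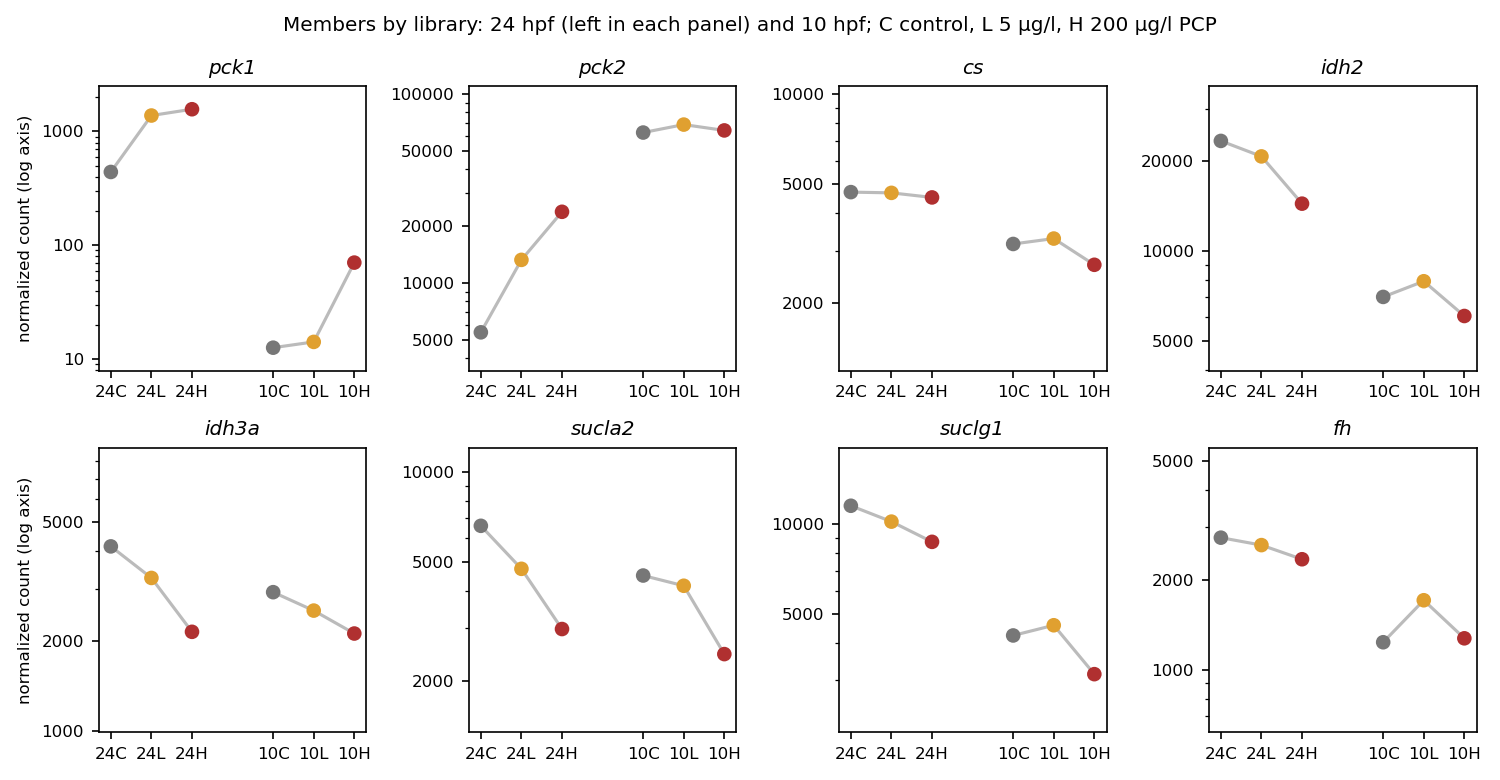
Normalized counts (vertical axes, log scale, 1 panel per gene) of the 8 genes in the 6 libraries, 1 point per library, by PCP dose and age. At 24 hpf pck1 and pck2 are higher in 24L and 24H than in 24C, while sucla2 and idh3a are lower, and pck2 is at 62425 or more in every library at 10 hpf.

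At 24 hpf the 6 genes of the cycle itself differed less from the control than pck1 and pck2. All 6 lay below it in both treated libraries, cs in 24L only at an FC of 0.994. Citrate synthase, coded by cs, joins acetyl-CoA to oxaloacetate and opens the cycle. The normalized counts of cs were 4708 in 24C, 4681 in 24L and 4519 in 24H, and 3156 in 10C, 3291 in 10L and 2688 in 10H. The libraries of an age were close together: the FC was 0.960 (0.922–0.999) in 24H, 0.994 (0.954–1.04) in 24L, 0.852 (0.808–0.898) in 10H and 1.04 (0.993–1.09) in 10L. A second entry, LOC100536541, is also described as citrate synthase and held the same number of reads as cs in 5 of the 6 libraries and 1 read more in the other, so the reads of cs may be shared with a near-identical copy and its level is uncertain.

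The isocitrate dehydrogenases take the next oxidation. The NAD-dependent enzyme of the cycle has its catalytic subunit from idh3a, and idh2 codes for the NADP-dependent mitochondrial enzyme. For idh3a the normalized counts were 4154 in 24C, 3257 in 24L and 2149 in 24H, and 2918 in 10C, 2532 in 10L and 2121 in 10H. They were lower at each higher dose at both ages. The FC of idh3a was 0.517 (0.492–0.544) in 24H, just short of the threshold of 0.5, and 0.784 (0.748–0.822) in 24L, 0.727 (0.686–0.770) in 10H and 0.868 (0.823–0.914) in 10L.

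For idh2 the normalized counts were 23403 in 24C, 20769 in 24L and 14426 in 24H, and 7028 in 10C, 7930 in 10L and 6066 in 10H. The 3 libraries at 24 hpf all stood above the 3 at 10 hpf. The FC of idh2 was 0.616 (0.604–0.629) in 24H, 0.887 (0.871–0.905) in 24L, 0.863 (0.833–0.894) in 10H and 1.13 (1.09–1.16) in 10L, none of them called.

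Succinyl-CoA ligase makes succinate together with a nucleoside triphosphate. Its α subunit, from suclg1, pairs with a β subunit from sucla2 in the ADP-forming enzyme or from suclg2 in the GDP-forming one. The normalized counts of sucla2 were 6615 in 24C, 4748 in 24L and 2984 in 24H, and 4509 in 10C, 4166 in 10L and 2460 in 10H. Each higher dose had less of it at the later age, and 24H lay below the control of 10 hpf as well.

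In 24H sucla2 fell, with an FC of 0.451 (0.433–0.470), the only fall called among the 8 genes in a treated library against its control. Its FC was 0.718 (0.691–0.746) in 24L, 0.546 (0.519–0.574) in 10H and 0.924 (0.886–0.963) in 10L, none of them called. For the α subunit, suclg1, the normalized counts were 11540 in 24C, 10211 in 24L and 8737 in 24H, and 4244 in 10C, 4592 in 10L and 3149 in 10H. Its FC was 0.757 (0.737–0.778) in 24H and 0.742 (0.708–0.778) in 10H, nearly equal at both ages, against 0.885 (0.861–0.909) in 24L and 1.08 (1.04–1.13) in 10L.

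The other β subunit stood on the other side of its control at 24 hpf. The normalized counts of suclg2 were 4340 in 24C, 5293 in 24L and 8236 in 24H, and 2012 in 10C, 2011 in 10L and 1679 in 10H. The FC was 1.90 (1.83–1.97) in 24H, under the 2-fold threshold, and 1.22 (1.17–1.27) in 24L. This gene was singled out after its values were seen, as the partner of suclg1 that sucla2 is not.

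Fumarase, coded by fh, hydrates fumarate to malate. Its normalized counts were 2766 in 24C, 2612 in 24L and 2342 in 24H, and 1235 in 10C, 1707 in 10L and 1273 in 10H. The FC of fh was 0.847 (0.802–0.894) in 24H, 0.944 (0.894–0.998) in 24L, 1.03 (0.951–1.12) in 10H and 1.38 (1.29–1.49) in 10L, and none was called. A further entry described as a mitochondrial fumarate hydratase, LOC100535417, had an FC of 0.624 (0.569–0.683) in 24H and 0.854 (0.782–0.932) in 24L.

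With age alone the cycle genes were higher. The ratio of 24C over 10C was 3.33 (3.24–3.42) for idh2, 2.72 (2.62–2.82) for suclg1 and 2.24 (2.09–2.40) for fh, all called, the last 2 not with that assumed coefficient of 0.4. It was 1.49 (1.42–1.56) for cs, 1.47 (1.41–1.53) for sucla2 and 1.42 (1.36–1.5) for idh3a, which were not called. So all 6 were above the younger control, while their FC in 24H was below 1.

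**Figure D2:**
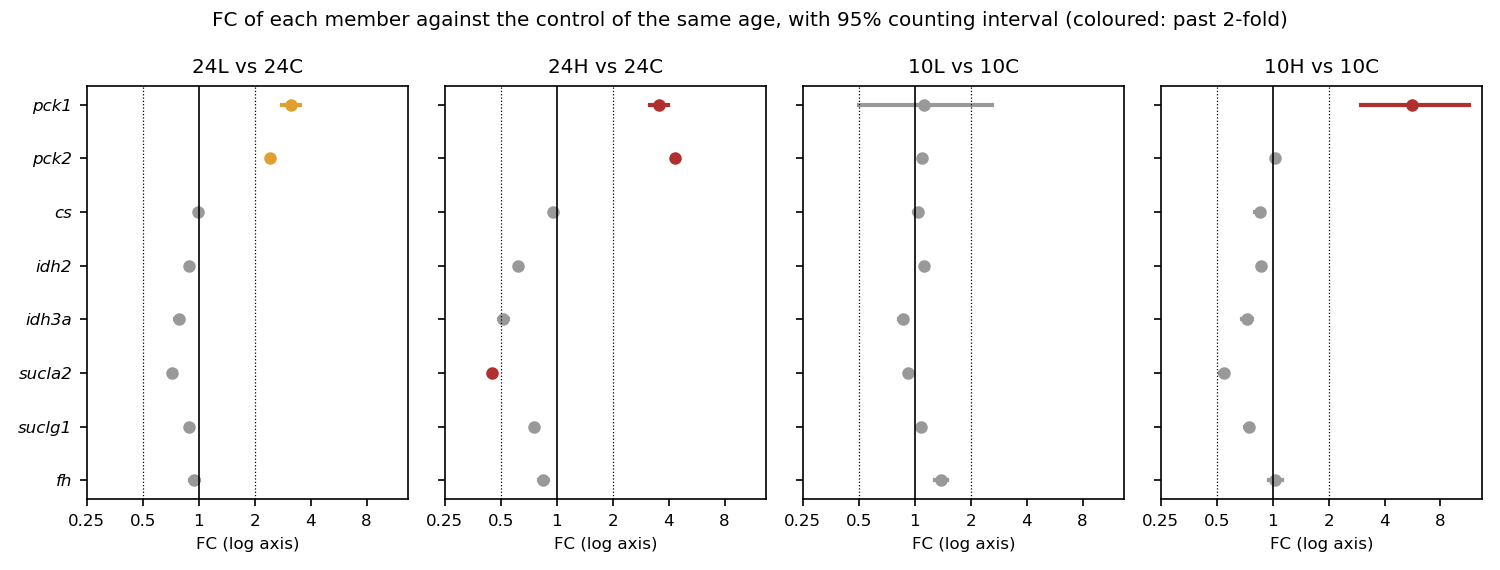
FC of the 8 genes (horizontal axis, log scale, bars for the 95% counting interval) in each treated library over the control of its age, with lines at 2 and 0.5. The points of pck1 and pck2 at 24 hpf lie beyond the line at 2, and in 24H the 6 cycle genes spread between 0.451 for sucla2 and 0.960 for cs.

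Counted together, 2 of the 8 genes rose and 1 fell in 24H, where 11.9% of the 21217 genes tested rose and 16.4% fell. In 24L 2 rose and 0 fell, where 3.50% of all genes rose and 4.18% fell. In 10H 1 rose and 0 fell, against 6.69% and 6.33% of all genes. In 10L none was called, where 3.65% of all genes rose and 2.39% fell, and edgeR's exact test with an assumed coefficient of variation called 0 as well. The 2 PEPCK genes thus made up all the rises, and the share of falls among the 8 genes was near that of all genes in 24H. The calls of pck1 and pck2 in 24L and of sucla2 in 24H were lost in edgeR's exact test once a coefficient of variation of 0.4 between pools was assumed, and the real one is unknown with 1 library a group.

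The 2 doses share the control of their age, so their values stand side by side without a comparison of their agreement. For the 6 cycle genes the median log2 FC (1 added to the counts) was -0.55 in 24H, -0.17 in 24L, -0.33 in 10H and 0.09 in 10L. The median over all genes was -0.03 in 24H, -0.01 in 24L, 0.00 in 10H and 0.00 in 10L. Below the control were 6 of the 6 in 24H, 6 in 24L, 5 in 10H and 2 in 10L, against 51.2%, 50.5%, 44.8% and 49.4% of all genes. For cs in 24L the FC was 0.994 (0.954–1.04), an interval that includes 1. With TMM factors computed anew 1 of the 6, cs, moved to the other side in 24L, with an FC of 1.00.

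Between the doses at 24 hpf, 24H over 24L, 0 of the 8 genes were called, by the binomial test and by edgeR's exact test, where 6.74% of all genes rose and 11.0% fell. The lowest ratios were 0.629 (0.601–0.657) for sucla2, 0.660 (0.626–0.696) for idh3a and 0.695 (0.680–0.709) for idh2. At 10 hpf, 10H over 10L, pck1 alone was called, as a rise, where 7.69% of all genes rose and 8.72% fell. The ratio of sucla2 there was 0.590 (0.562–0.621). All 6 cycle genes were lower at the high than at the low dose at both ages. Of all genes, 50.6% were lower at 24 hpf and 44.1% at 10 hpf. For cs at 24 hpf the ratio was 0.965 (0.928–1.005), an interval that includes 1. Between the controls, 24C over 10C, 4 of the 8 genes rose and 1 fell, where 28.6% of all genes rose and 18.2% fell.

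The rest of the pathway was taken from lists of enzymes by role. The list for the cycle added 17 further genes. It also holds genes of cytosolic isozymes, aco1, idh1, mdh1a and mdh1b, so its counts are not those of the mitochondrial cycle alone. Of the 23 genes in all, 0 rose and 5 fell in 24H, where 11.9% of all genes rose and 16.4% fell. In 24L, 10H or 10L 0 of the 23 were called. Of all genes, 3.50% rose and 4.18% fell in 24L, 6.69% and 6.33% in 10H, and 3.65% and 2.39% in 10L. Their median log2 FC stood at -0.40 in 24H, with 19 of the 23 below the control, at -0.26 in 24L, with 18 below, and at -0.26 in 10H, with 19 below. In 10L it was 0.05, with 12 above the control and 11 below. Of all genes, 51.2% lay below the control in 24H, 50.5% in 24L, 44.8% in 10H and 49.4% in 10L. The 4 further genes that fell in 24H were sdhc, sdhdb, mdh1b and ogdhl. The last of these, which codes for a relative of oxoglutarate dehydrogenase, had 0 reads in 24H and 10 in 24C, at least 4.14-fold lower against a floor of 3 reads per library, and it was not counted once a mean of 10 reads was required.

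Succinate dehydrogenase, complex II of the respiratory chain, carries succinate on to fumarate between the steps of sucla2 and fh. Its catalytic flavoprotein, sdha, had normalized counts of 4629 in 24C, 4126 in 24L and 4471 in 24H, and an FC of 0.966 (0.928–1.01) in 24H. The iron-sulfur subunit, sdhb, had 5166 in 24C, 4148 in 24L and 2952 in 24H, and an FC of 0.572 (0.547–0.597) in 24H, which was not called. The membrane anchors were lower still.

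The anchor sdhc fell in 24H, with normalized counts of 5936 in 24C, 4852 in 24L and 2700 in 24H and an FC of 0.455 (0.435–0.475). The other anchor, sdhdb, fell as well, with 4461 in 24C, 3472 in 24L and 1549 in 24H and an FC of 0.347 (0.328–0.367). In 10H the FC was 0.595 (0.555–0.639) for sdhc and 0.587 (0.527–0.653) for sdhdb, not called. The paralog sdhda held 9 to 28 reads per library and had an FC of 1.04 (0.487–2.25) in 24H, so a change of it was not detectable.

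Cytosolic malate dehydrogenase works with the mitochondrial enzyme in the malate-aspartate shuttle, and both of its genes were higher in 24C than in 10C. The normalized counts of mdh1a were 16052 in 24C, 12107 in 24L and 8203 in 24H, and 3687 in 10C, 2888 in 10L and 3109 in 10H. Its FC was 0.511 (0.498–0.524) in 24H, which was not called, and its ratio of 24C over 10C was 4.35 (4.2–4.52). The paralog mdh1b had normalized counts of 3532 in 24C, 2272 in 24L and 920 in 24H, against 42.0 to 52.2 at 10 hpf. It fell in 24H with an FC of 0.260 (0.243–0.279), and its FC in 24L was 0.643 (0.609–0.679).

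Among 11 genes for the entry of pyruvate, 2 rose and 0 fell in 24H, where 11.9% of all genes rose and 16.4% fell. In 24L 2 rose and 0 fell, where 3.50% of all genes rose and 4.18% fell. In 10H 1 rose and 0 fell, where 6.69% of all genes rose and 6.33% fell. In 10L 0 were called, where 3.65% of all genes rose and 2.39% fell. Below the control were 8 of the 11 in 24H, 9 in 24L, 7 in 10H and 5 in 10L, against 51.2%, 50.5%, 44.8% and 49.4% of all genes. The listed subunit genes of pyruvate dehydrogenase, pdha1a, pdha1b, pdhb, dlat and pdhx, all lay below in 24H, none of them called. The counts of pdhb, for example, were 5015 in 24C and 2780 in 24H. Most of those that rose were pyruvate dehydrogenase kinases, which switch pyruvate dehydrogenase off by phosphorylation. A further kinase gene, pdk1, was not called in any treated library against its control. The entry LOC794083, a pyruvate dehydrogenase kinase 2-like gene, had normalized counts of 752 in 24C, 639 in 24L and 2995 in 24H, and its FC was 3.98 (3.67–4.32) in 24H and 0.850 (0.762–0.949) in 24L. At 10 hpf its counts were 148 in 10C, 175 in 10L and 80.9 in 10H. The library 10H was thus lower, called against 10L and not against 10C. The kinase pdk2 had 48.1 in 24C, 103 in 24L and 151 in 24H, and rose in both 24H, 3.13 (2.25–4.45), and 24L, 2.14 (1.49–3.12). The kinase pdk3a rose in 10H with an FC of 2.60 (1.79–3.85), with 104 reads against 40 in 10C. In 10L, with 94 reads, its FC was 1.98 (1.35–2.94), just short of a call that it passed with scaling by library totals or TMM. At 24 hpf pdk3a had 160 in 24C, 143 in 24L and 130 in 24H and was not called. In 24L the other call was pdha1b, for a subunit of the dehydrogenase itself, at 42 reads against 18 in 24C.

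Beside pck1 and pck2, 7 genes of gluconeogenesis and anaplerosis were measured. Of these, 0 rose and 2 fell in 24H, where 11.9% of all genes rose and 16.4% fell. Above the control in 24H were 4 of the 7, against 45.8% of all genes, with a median log2 FC of 0.82 over the list. Of these 4, g6pcb had only 4 reads in 24H and 0 in 24C. Its log2 FC was set by the added 1, and the median would be lower without it. In 10H 0 of the 7 lay above the control and 6 below, against 49.4% and 44.8% of all genes, with a median log2 FC of -0.59. The fructose-bisphosphatase gene fbp1b had normalized counts of 14104 in 24C, 20377 in 24L and 27284 in 24H. Its FC was 1.93 (1.90–1.97) in 24H, which was not called. The paralog fbp1a went the other way, with 1871 in 24C, 1766 in 24L and 1570 in 24H, and was not called. The muscle-type fructose-bisphosphatase gene fbp2 fell in 24H with an FC of 0.274 (0.203–0.367), with 198 in 24C, 117 in 24L and 54.3 in 24H, and it had 0 reads at 10 hpf. The other fall in 24H, and the 1 fall in 24L, was slc37a4b, a glucose-6-phosphate transporter gene with at most 35 reads, whose call in 24L was lost with TMM, with 1 added to the counts and in edgeR's exact test. In 10H the related slc37a4a fell with an FC of 0.418 (0.370–0.472), with 385 reads against 922 in 10C, while its FC in 24H was 1.76 (1.66–1.88). In 10L g6pcb fell, with 6 reads against 30 in 10C. Pyruvate carboxylase, pc, which refills oxaloacetate, was looked at after its values were seen and had 6989 in 24C, 10806 in 24L and 13121 in 24H. Its FC was 1.88 (1.82–1.93) in 24H and 1.55 (1.5–1.59) in 24L, neither of them called. At 10 hpf pc had 2257 in 10C, 3148 in 10L and 1279 in 10H. There 10H was the lowest, called against 10L and not against 10C.

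**Figure D3:**
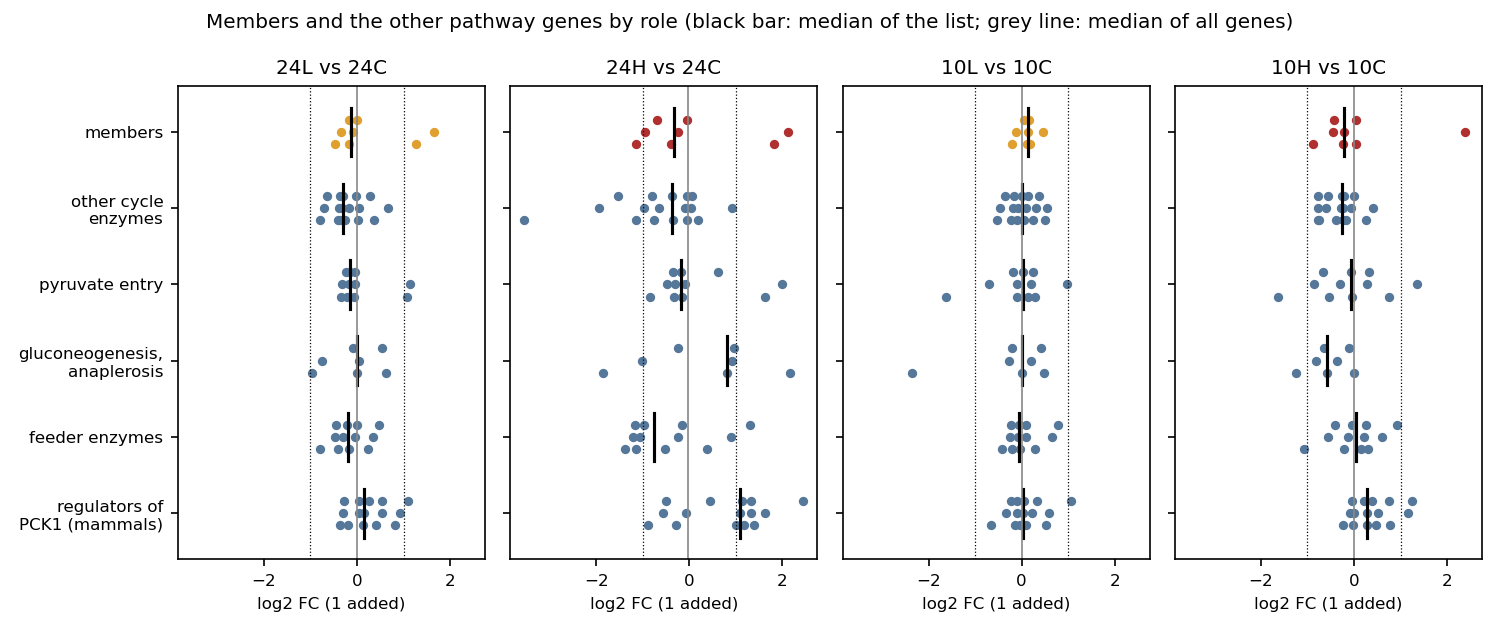
log2 FC (1 added to the counts) of the measured genes of each role in the treated libraries over the control of their age, 1 point per gene, with the median of each role. In 24H the median of the regulators is 1.08 and that of the enzymes feeding the cycle is -0.75, against -0.03 for all genes.

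Of the genes that act on PCK1 transcription in mammals, 15 were measured in these embryos, and 9 rose and 0 fell in 24H, where 11.9% of all genes rose and 16.4% fell. The median log2 FC of the 15 was 1.08 there, with 10 above the control and 5 below, against 45.8% and 51.2% of all genes. The 5 below were foxo1b, foxo3a, foxo3b, creb1 and pparaa. The calls of the 15 were not counted with an assumed coefficient of variation of 0.4. With that coefficient pck1 lost its call in 24L at an FC of 3.13. In 24L 1 rose, where 3.50% of all genes rose, and in 10H 1 rose, where 6.69% of all genes rose. In 10L 0 were called, where 3.65% of all genes rose and 2.39% fell. The gene called in each of 24H, 24L and 10H was hnf4a, for a nuclear receptor of liver and gut endoderm. Its normalized counts were 230 in 24C, 490 in 24L and 1261 in 24H, and 1373 in 10C, 1284 in 10L and 3254 in 10H.

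The FC of hnf4a reached 5.48 (4.75–6.36) in 24H, 2.13 (1.81–2.51) in 24L and 2.37 (2.22–2.53) in 10H, against 0.935 (0.866–1.01) in 10L. In the same 3 libraries pck1 rose, and a link between the 2 genes was not tested. Unlike pck1, hnf4a fell with age, with a ratio of 24C over 10C of 0.167 (0.144–0.194). The others that rose in 24H were atf4b1, atf4b2, ppargc1al, foxo1a, cebpa, cebpb, pparg and pparab, with FC values between 2.04 for pparab and 3.10 for atf4b2.

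The genes most like pck1 over the 6 libraries, by Pearson's r of log2(normalized count + 1) among 13740 genes averaging at least 50 reads, were eif3eb (0.999), stau2 (0.997), ppap2b (0.996), tpi1b (0.993) and fam49ba (0.993). An r of 0.99 or more was found for 17 genes. These are 6 points in which the 2 ages lie far apart and 2 doses share a control, so r is a description. The normalized counts of eif3eb, a translation initiation factor subunit, were 661 in 24C, 903 in 24L and 978 in 24H, and 174 in 10C, 180 in 10L and 327 in 10H, the same order as in pck1 with smaller ratios.

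The libraries held between 47409208 and 59864868 reads. Markers of tissues that the whole embryo holds also moved with dose at 24 hpf, and their part in the values of the 8 genes was not tested. The summed normalized counts of 6 skeletal muscle genes were 396553 in 24C, 260083 in 24L and 66534 in 24H. Of these 6, 5 fell in 24H while myog, a regulator of muscle differentiation, rose, with 216 in 24C, 1130 in 24L and 4007 in 24H. The sums of 4 blood genes were 298690 in 24C, 197893 in 24L and 20979 in 24H. For 6 neuron genes they were 9977 in 24C, 7607 in 24L and 3829 in 24H, and for 5 heart genes 8645 in 24C, 7432 in 24L and 4942 in 24H. For 5 yolk syncytial layer genes they were 183078 in 24C, 103372 in 24L and 49670 in 24H, with mxtx2 at 0 in 24C and 24H. For tissues in which PEPCK is known, the sum was 2186 in 24C, 2173 in 24L and 3700 in 24H over 5 liver and gut endoderm genes, and 4957 in 24C, 5259 in 24L and 9172 in 24H over 4 pronephros genes. At 10 hpf the 5 liver and gut genes summed to 3715 in 10C, 3565 in 10L and 6293 in 10H, with fabp10a at 0 in 10H, and the 4 pronephros genes to 4851 in 10C, 4642 in 10L and 2485 in 10H. The 6 gastrula genes summed to 669 in 24C, 1376 in 24L and 6213 in 24H, and to 26579 in 10C, 20144 in 10L and 43367 in 10H.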

How the data were processed

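RNA of whole zebrafish embryos was sequenced as 1 library for each of 6 groups, taken from the sample titles. The authors aligned the reads with Tophat, to Zv10 according to the paper and to Zv9 according to the labels, and took further annotation from the human genome. They deposited a single table whose signal is a normalized count per gene, described as TMM from edgeR. Which program counted reads was not stated in the sources used here. The deposited factors equal median-of-ratios size factors over the 17335 entries with reads in all 6 libraries (within 1e-06 percent), and TMM factors computed with edgeR 4.0.16 differ from them by -1.90% (10H) to 3.74% (10L).

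In each library 100% of the values were whole multiples of 1 step (tolerance 0.001 reads), worth 0.862 (24H) to 1.07 (24C), which gave back the reads. The 11 entries that merge transcripts named by clone, with 13.9% to 15.5% of a library's reads, were left out of the tests. An exact binomial test (two-sided, 2-fold, unadjusted p under 0.05) stood in for DEGseq, which the paper used, and called 6012 of 21217 genes in 24H, 1629 genes in 24L, 2761 genes in 10H and 1282 genes in 10L. It was tested on simulated data with counting error only, which the test itself assumes. That trial says nothing of the variation between pools of embryos. Intervals and the floor of 3 reads cover counting error only.

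The 8 genes and all lists were chosen with earlier results of these data known. Of 75 pathway and regulator symbols, 51 were found by name and 11 by their RefSeq gene ID, and 13 had no match. Named besides the 8 genes were, per treated library, the 3 highest and 3 lowest called list genes with a minimum of 50 reads in the higher library. The rule also took the complex II subunits and the 5 genes most like pck1 among those without a LOC or clone name. The second cs and fh entries, idh3b, idh3g, suclg2, pc, fbp1a, fbp1b, mdh1a, ogdhl, pdk1, pdha1a, pdha1b, pdhb, dlat, pdhx, slc37a4b, g6pcb, the enzymes glud1a, glud1b, me2, got2a, got2b and glsa, myog and the other single markers, and the regulators other than hnf4a fall outside that rule and were named after their values were seen. Alternatives were scaling by library totals, median-of-ratios factors or edgeR's TMM (the last chosen after seeing the data), 1 added to the values, a minimum of 10 reads, Benjamini-Hochberg adjusted p, thresholds of 1.5-fold and 4-fold, 2-fold with no test, and edgeR's exact test with an assumed coefficient of variation of 0.2 or 0.4. The software was R 4.3.3, scipy 1.17.1, pandas 2.3.3, numpy 2.4.6 and Python 3.11.15.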

Additional observations from a re-analysis of the deposited data

Results flagged for a closer look

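The 2 PEPCK genes had log2 FC values that were more than 1 apart between the ages. At 200 μg/l the log2 FC of pck2 at 24 hpf minus that at 10 hpf was 2.08 (95% interval 2.03 to 2.13). At 5 μg/l it was 1.13 (1.08 to 1.18) for pck2 and 1.48 (0.39 to 2.57) for pck1, the value for pck1 resting on 16 reads in 10L and 12 in 10C. These intervals, from a normal approximation, cover counting error only, and the differences were not tested against the variation between pools of embryos. At 200 μg/l the same difference for pck1 was -0.65 (-1.55 to 0.25). For the 6 cycle genes it lay between -0.55 (fh) and -0.07 (cs) at 5 μg/l and between -0.49 (idh3a) and 0.17 (cs) at 200 μg/l.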

How the results depend on the processing

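No paired analysis was possible because each group has 1 library and the labels carry no replicate numbers, and for the same reason no replicate could be left out. Over the fold changes of the 8 genes, 595 values under an alternative kept direction and call, 12 lost the call, 7 gained it and 2 turned round: sucla2 in 10L at 1.01 with scaling by library totals (0.924 before) and cs in 24L at 1.00 with edgeR's TMM (0.994 before). The thresholds, the adjusted p, the minimum of reads and 2-fold with no test reuse the same FC, so its direction could not change. The median-of-ratios factors are nearly the deposited ones and could hardly move a value. With an assumed coefficient of variation of 0.4 in edgeR's exact test, pck1 and pck2 lost their calls in 24L, sucla2 in 24H, and suclg1 and fh between the controls. The number called of the 8 genes was then 0 in 24L (2 in the main setting) and 3 between the controls (5). Of the other pathway genes it was then 0 in 10H (3), 0 in 24L (3) and 4 in 24H (14). At 1.5-fold, the number of the 8 genes called was 2 in 10H (1), 5 in 24H (3), 2 for 10H over 10L (1) and 3 for 24H over 24L (0). At 4-fold it was 0 in 24L, 1 in 24H and 2 between the controls. Of the other pathway genes, 1.5-fold gave 26 calls in 24H, 8 calls in 24L, 14 calls in 10H and 5 calls in 10L and 4-fold gave 1 call in 24H, 0 calls in 24L and 0 calls in 10H. In 10L that number was 1, and 2 with library totals, TMM or no test. Over all genes, library totals changed the numbers higher and lower to 1053 and 358 in 10L (775 and 507) and to 1202 and 2322 for 10H over 10L (1631 and 1850). The exact test of edgeR called 2436 genes in 24H, 352 genes in 24L, 694 genes in 10H and 254 genes in 10L at a coefficient of 0.4. Except where the stricter or looser threshold itself sets the number, the cause was not tested.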

Other observations

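Of 12 enzymes that feed carbon into the cycle or take it out, 9 lay below the control in 24H, against 51.2% of all genes. Their median log2 FC was -0.75 there. In 24H 1 of the 12 rose and 5 fell, where 11.9% of all genes rose and 16.4% fell. In 24L 0 were called, where 3.50% of all genes rose and 4.18% fell. In 10L 0 were called as well, where 3.65% rose and 2.39% fell. In 10H 0 rose and 1 fell, where 6.69% of all genes rose and 6.33% fell. The 2 glutamate dehydrogenase genes, whose enzyme turns glutamate into 2-oxoglutarate, moved in opposite directions. The normalized counts of glud1a were 3155 in 24C, 3150 in 24L and 7787 in 24H, and it rose in 24H with an FC of 2.47 (2.37–2.57). For glud1b they were 4453 in 24C, 3261 in 24L and 1913 in 24H, and it fell in 24H with an FC of 0.430 (0.408–0.452). Between the controls the order was the reverse, with a ratio of 24C over 10C of 0.463 (0.443–0.483) for glud1a and 2.38 (2.25–2.51) for glud1b.

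The others that fell in 24H were me2, for a malic enzyme, with an FC of 0.447 (0.383–0.519), got2a, 1 of 2 genes for the mitochondrial aspartate aminotransferase, with 0.381 (0.309–0.467), and the glutaminase genes glsa, with 0.451 (0.351–0.577), and glsb, with 0.480 (0.398–0.577). The normalized counts of got2a were 317 in 24C and 121 in 24H. Its paralog got2b had 7552 in 24C, 6673 in 24L and 6346 in 24H and was not called. In 10H glsb fell with an FC of 0.466 (0.284–0.748), with 27 reads against 58 in 10C. The directions of the enzymes that rose or fell in 24H were the same under all 3 scalings. These genes were taken as past 2-fold, and none of the 3 scalings moves an FC by nearly that much. The TMM factors, for example, are 3.64% above the deposited ones in 24H and 0.438% above in 24C. The directions could thus not have turned, and this is no check of them. With 1 library a group, none of these values has a replicate check.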
